A study of Sus scrofa domesticus and Sus scrofa with 18 samples.

Results

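The 25 most abundant long non-coding RNAs (lncRNAs) of the pig spleen are described here. They were chosen by their level: of the 15040 lncRNAs quantified, those whose mean log2(FPKM+1) over all 18 libraries was at least 5 were kept, with an empty cell read as 0. FPKM is a fragment count divided by the length of the transcript and by the mapped reads of the library, so levels can be compared between transcripts of different length. Spleen RNA of the Rongchang pig, a domestic breed, was sequenced at 5 stages with 3 libraries each, namely E55d (fetuses at 55 days before birth), B0d (piglets right after birth), W30d (piglets 30 days after weaning), A180d (pigs at 180 days) and A2Y (adults at 2 years). A sixth group (WB) held 3 libraries of Wild Boars of the same age as A2Y. All animals were healthy females, no group received a treatment, and 3 animals were sampled per group. WB and A2Y shared the age but differed in both breed and origin, since the Wild Boars came from outside the domestic herd, and the parts of breed and origin cannot be told apart.

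LncRNAs are transcripts that are spliced and processed much like messenger RNA but carry no long open reading frame. Known lncRNAs act in the nucleus on chromatin and transcription or in the cytoplasm on the stability and translation of other RNAs, and most are found at far lower levels than messenger RNAs. The spleen filters blood in its red pulp, where macrophages take up aged red cells and recycle their iron, and houses B and T cells in its white pulp. In the fetus it also makes blood cells, and its lymphoid tissue grows after birth. The 25 lncRNAs carry only the assembly identifiers of the study (TU followed by a number), and the values are not paired there with a gene symbol, a position or a sequence. Their function is therefore not given, and whether a member overlaps a protein-coding gene was not analysed here.

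Markers of spleen cells were looked for in every library. Of the markers looked for, 3 of 6 for B cells, 4 of 6 for T cells and 4 of 6 for macrophages could be matched to a symbol, and none of these was at 0 in any library. The summed FPKM of the B cell markers ran from 10.3 to 13.0 in the fetal libraries, 22.4 to 29.6 in B0d, 54.4 to 89.5 in W30d, 139.8 to 161 in A180d, 115 to 168 in A2Y and 38.1 to 42.7 in the Wild Boars. For the T cell markers the ranges were 1.97 to 2.10, 17.8 to 33.3, 48.0 to 136, 172 to 202, 113 to 207 and 67.4 to 78.8 in the same order. The macrophage markers ran from 111 to 126, 389.7 to 456, 498 to 647, 554 to 669.5, 764 to 1162 and 1373 to 1771. VCAM1 and SPIC held most of this sum in every library. CD68 was at 1.90 to 2.27 FPKM in E55d and 31.3 to 48.4 in WB. CSF1R did not rise with the sum after B0d. It was at 9.91 to 14.6 FPKM in B0d, 8.01 to 11.8 in A2Y and 20.3, 1.91 and 2.07 in WB. The erythroid markers (3 of 6 matched) summed to 1161 to 12779, 6064 to 13096, 2169.7 to 3302, 2023 to 5206, 169 to 2741 and 870.5 to 6706. HBB, a beta globin gene, was the one matched spleen marker listed at 0, in an E55d library and in W30d replicates 1 and 3. The endothelial markers (2 of 4 matched) summed to 43.4 to 48.8, 34.3 to 46.0, 26.2 to 28.2, 24.5 to 31.0, 22.5 to 24.7 and 26.4 to 49.6. The markers of spleen mesenchyme (3 of 4 matched, with TLX1, a factor of spleen formation, above 0 in every library) summed to 46.7 to 53.9, 45.7 to 48.7, 16.0 to 19.4, 11.2 to 16.0, 15.9 to 18.6 and 20.2 to 30.1. The lowest fetal erythroid sum, 1161, was in the library with HBB at 0. The marker sums thus differed between stages, and most of them between WB and A2Y. The part of these markers in the lncRNA levels was not tested. In bulk tissue, fewer cells of a type and less RNA per cell cannot be told apart.

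Some libraries stood apart from the others of their group. In B0d replicate 3, 12 of the 25 lncRNAs lay more than 0.5 on the log2 scale from the mean of the other libraries of the group, and albumin (ALB), the liver's main plasma protein, reached 530.1 FPKM against at most 0.369 in the other B0d libraries. In W30d replicate 2, 9 of the 25 lay that far from the rest, and the erythroid genes HBM and TRIM10 were at 40.8 and 0.233 FPKM, whereas HBM was at 3252 and 2611 and TRIM10 at 50.1 and 42.2 in replicates 1 and 3. The third matched erythroid gene, HBB, went the other way, at 2129 FPKM in W30d replicate 2 and listed at 0 in replicates 1 and 3. WB replicate 1 also had 9 such lncRNAs, and A2Y replicate 2 had 8. The median distance from the rest of the group was largest in WB replicate 1 (0.41), beside 0.39 in B0d replicate 3 and 0.37 in W30d replicate 2. Fits given below without B0d replicate 3 and W30d replicate 2 kept WB replicate 1 and A2Y replicate 2. ALB was at 45.4 FPKM in WB replicate 3. One protein-coding gene (ENSSSCG00000018700) made up between 36.9 and 53.6% of the summed protein-coding FPKM in 16 libraries and 0.00% in A180d replicates 1 and 2. Its part in the FPKM of the lncRNAs was not tested.

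The levels of the 25 lncRNAs spanned a wide range. TU47080 had the highest mean, 9.87 on the log2(FPKM+1) scale, followed by TU69026 at 9.39, TU80113 at 7.57, TU81514 at 6.88 and TU40061 at 6.67. The other 20 had means between 5.02 and 5.96. In this band TU73658 (5.96), TU38652 (5.80), TU17263 (5.72), TU79999 (5.65), TU61193 (5.55), TU79856 (5.51) and TU79655 (5.51) came first. Just inside the limit were TU58564 at 5.04, TU77474 at 5.02 and TU80538 at 5.02, and just outside it were TU10843 at 4.94, TU76059 at 4.93 and TU74860 at 4.92. The limit thus divides lncRNAs of nearly the same level. All 25 passed the filter on low values, as did 14129 of the 15040 lncRNAs.

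The 25 lncRNAs made up a large share of the lncRNA signal. Their summed FPKM was between 14.8 and 29.2% of that of all lncRNAs in a library (median 22.0%). TU47080 alone took from 3.79 to 11.5% and TU69026 from 0.634 to 10.6%. From 3.58 to 8.30% of the protein-coding genes lay above the members' median level in the same library. The heat map of the 25 lncRNAs shows that no single course over the stages was shared by all of them.

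**Figure D1:**
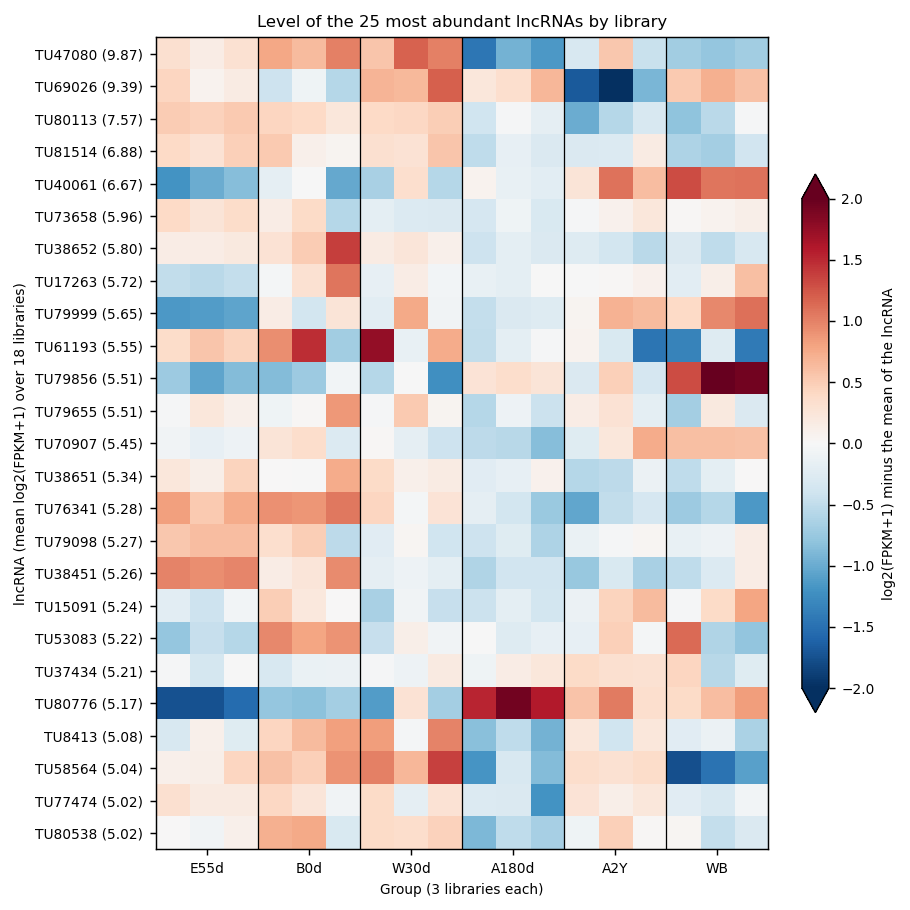
Level of the 25 most abundant lncRNAs (rows, ordered by their mean log2(FPKM+1) over 18 libraries, in parentheses) in each library (columns, 3 per group). Colour is log2(FPKM+1) minus the mean of that lncRNA, cut at 2 and -2. TU80776 goes from its lowest levels at E55d to its highest at A180d, TU58564 is low at A180d and lowest in WB, and TU79856 is highest in WB.

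Over the 5 domestic stages, 21 of the 25 lncRNAs changed (limma F test, Benjamini-Hochberg adjusted p at most 0.05). Of all lncRNAs tested 60.7% changed, and of the 57 lncRNAs with a mean between 4 and 5, the next lower band of abundance, 73.7% did. The members that did not pass were TU73658 (adjusted p = 0.057), TU61193 (0.11), TU37434 (0.20) and TU79655 (0.23). The stage of the highest mean was E55d for 6 of the 25, B0d for 6, W30d for 6, A180d for 2 and A2Y for 5. The lowest stage was A180d for 9, A2Y for 7, E55d for 6, W30d for 2 and B0d for 1. A fall at every step from E55d to A2Y was found in the means of TU38451 and TU38651, and a rise at every step in those of TU40061. The difference between the highest and lowest of the 6 group means ran from 0.53 (TU37434) to 3.36 (TU80776), exceeded 1 in 17 members and exceeded 2 in 6. The spread between libraries of a group, as a pooled SD, had a median of 0.29 over the members.

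From the fetal spleen to birth, 5 of the 25 lncRNAs rose and 0 fell, where 18.2% of all lncRNAs tested were called, 7.50% upwards and 10.7% downwards. At an unadjusted p of at most 0.05 in limma, 8 were higher and 3 lower. The share of all lncRNAs at an unadjusted p is not given, here or below, so such counts describe the members only. TU53083 was at 20.9, 26.1 and 24.1 FPKM in the E55d libraries and at 72.1, 63.7 and 68.9 FPKM in the B0d libraries. All 3 newborn values were above the fetal ones, and the rise was 1.49 ± 0.35 (SE) on the log2 scale (limma, adjusted p = 0.0053). TU79999 was at 21.6, 22.0 and 23.0 FPKM at E55d and at 54.7, 38.1 and 58.9 FPKM at B0d, a rise of 1.13 ± 0.26 (limma, adjusted p = 0.0046). TU17263 went from 36.4, 35.2 and 36.7 FPKM to 50.4, 64.0 and 110.05 FPKM, a rise of 0.95 ± 0.24 (limma, adjusted p = 0.0088). The groups of both lncRNAs did not overlap, and the highest newborn value of each was in replicate 3, the library with the high ALB level. Without that library and W30d replicate 2, the rise of TU17263 was 0.64 (limma, adjusted p = 0.033) and that of TU79999 1.01 (0.0060). TU80776 rose by 0.92 ± 0.28 (adjusted p = 0.027) and TU8413 by 0.78 ± 0.26 (adjusted p = 0.047) in the same limma fit. The call of TU8413 was lost without any one of 13 of the 18 libraries, and that of TU80776 without any one of 4 of them. The median difference of the 25 lncRNAs was 0.26, beside 0.020 over all lncRNAs tested and 0.49 in the band from 4 to 5. At this and each later step the medians are on log2(FPKM+1), which compresses the differences of low lncRNAs. The median over all lncRNAs tested is therefore not comparable in size with that of the 25. The libraries of E55d and B0d did not overlap in 10 members that were higher and 3 that were lower, where 14.2 and 14.9% of all lncRNAs tested did not. When each library was scaled by its protein-coding genes, the split became 3 higher and 3 lower, with TU69026, TU38451 and TU79098 called lower and TU80776 and TU8413 no longer called (6.26 and 13.7% of all lncRNAs tested).

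Between birth and 30 days after weaning, few of the abundant lncRNAs changed. TU69026 rose and TU76341 fell, so that 2 of 25 were called, where 12.2% of all lncRNAs tested were (1.05% higher, 11.2% lower). TU69026 was at 500.4, 629 and 451 FPKM at B0d and at 1071, 1047 and 1529 FPKM at W30d. Every W30d library lay above every B0d library, and the rise was 1.20 ± 0.26 (limma, adjusted p = 0.0080). TU76341 was at 72.1, 71.0 and 79.4 FPKM at B0d and at 51.4, 37.0 and 45.8 FPKM at W30d. It fell by 0.73 on the log2 scale (SE 0.22, limma, adjusted p = 0.040), a call that was lost when B0d replicate 1 or 3, any one W30d library or A180d replicate 2 was left out, and under scaling by protein-coding genes. The median difference of the 25 was -0.033, beside -0.15 over all lncRNAs tested. The libraries did not overlap in 2 members that were higher and 5 that were lower at W30d, where 3.42 and 19.0% of all lncRNAs tested did not. Without both B0d replicate 3 and W30d replicate 2, TU15091, TU79098 and TU73658 were called lower, TU76341 was not called and TU69026 remained called higher.

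From W30d to A180d, 7 of the 25 lncRNAs fell and 1 rose, where 12.4% of all lncRNAs tested were called, 11.4% lower and 0.998% higher. TU47080 had the highest mean over the 18 libraries. It was at 1379, 2108 and 1891 FPKM at W30d and at 343, 484 and 422 FPKM at A180d. All weaned values were above those of A180d, and TU47080 fell by 2.09 on the log2 scale (SE 0.20, limma, adjusted p = 5.1e-05). TU58564 was at 65.1, 50.8 and 83.8 FPKM at W30d and at 13.6, 25.4 and 17.1 FPKM at A180d, and fell by 1.79 (SE 0.24, limma, adjusted p = 0.00080). TU8413 went from 59.5, 31.8 and 66.2 FPKM to 17.9, 22.8 and 16.5 FPKM and fell by 1.36 (SE 0.26, limma, adjusted p = 0.0055). In none of these did the groups overlap. TU80538 fell by 1.09 (adjusted p = 0.013), TU77474 by 0.75 (0.046), TU81514 by 0.71 (0.015) and TU80113 by 0.63 (0.032) in the same limma fit. The calls of TU77474, TU81514, TU80113 and TU80538 were each lost when one or more single libraries were left out, and without A180d replicate 1 none of these passed and 4 members were called.

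TU80776 went the other way. It was at 15.7, 43.0 and 21.4 FPKM at W30d and at 102, 137 and 107 FPKM at A180d, with the highest weaned value in replicate 2. The lowest value at A180d was above all weaned ones, and the rise was 2.18 ± 0.28 on the log2 scale (limma, adjusted p = 0.00060). The median difference of the 25 lncRNAs was -0.46, that of the band from 4 to 5 was -0.47, and that of all lncRNAs tested was -0.20. The -0.20 is not comparable in size with the -0.46, since adding 1 to the FPKM compresses the differences of low lncRNAs. The libraries did not overlap in 2 members that were higher and 14 that were lower at A180d, where 3.09 and 36.4% of all lncRNAs tested did not. When each library was scaled by its lncRNAs, which removes the lower lncRNA level of A180d, 7 members were called higher and 1 lower (median 0.57), where 8.00 and 5.92% of all lncRNAs tested were. TU47080 was the member called lower and TU80776 was among those called higher.

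From A180d to A2Y, 7 of the 25 rose and 2 fell, where 17.5% of all lncRNAs tested were called, 17.2% higher and 0.297% lower. TU47080 was at 745, 1364 and 683 FPKM at A2Y, all above the A180d libraries, and rose by 1.10 ± 0.20 (limma, adjusted p = 0.0033). TU58564 was at 40.8, 39.6 and 41.4 FPKM at A2Y, within a narrow range, and rose by 1.12 ± 0.24 (limma, adjusted p = 0.0079). TU70907 went from 29.3, 28.7 and 23.1 FPKM to 35.8, 50.1 and 72.4 FPKM, a rise of 0.89 ± 0.23 (limma, adjusted p = 0.017). TU80538, TU79999, TU77474 and TU8413 rose by between 0.79 and 0.83 (adjusted p from 0.030 to 0.047). With libraries scaled by their protein-coding genes, only TU47080 and TU58564 of these 7 were still called higher, and 3 members were called lower (8.01 and 0.255% of all lncRNAs tested). With libraries scaled by their lncRNAs, 0 were called higher and 11 lower (median -1.03), where 1.33 and 4.91% of all lncRNAs tested were. At an unadjusted p of at most 0.05 in limma 0 members were higher and 18 lower, with no share of all lncRNAs to set beside this.

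TU69026 and TU80776 fell over the same interval. TU69026 was at 784, 851 and 1062 FPKM at A180d and at 208, 115 and 355 FPKM at A2Y, so that the highest adult value was below the lowest of A180d. It fell by 2.12 on the log2 scale (SE 0.26, limma, adjusted p = 0.00050). TU80776 was at 52.3, 73.2 and 44.4 FPKM at A2Y and fell by 1.03 (SE 0.28, limma, adjusted p = 0.020). The members' median difference was 0.24, and that of all lncRNAs tested 0.26. The libraries did not overlap in 12 members that were higher and 2 that were lower at A2Y, where 46.6 and 1.42% of all lncRNAs tested did not. The calls of this step depended on single libraries. Leaving out A180d replicate 1 or 2 left 5 calls, A180d replicate 3 or A2Y replicate 3 left 3, and A2Y replicate 2 left 4. TU47080, TU58564 and TU69026 were called in every one of the 18 fits with 1 library left out.

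Between Wild Boars and domestic pigs 2 years of age, 2 of the 25 lncRNAs were higher in WB and 2 were lower, where 17.7% of all lncRNAs tested were called, 1.01% higher and 16.7% lower. TU69026 was at 962, 1103 and 1003 FPKM in WB, every value above the A2Y libraries given before, and the difference was 2.32 ± 0.26 (limma, adjusted p = 0.00012). TU79856 was at 36.1, 62.2 and 34.9 FPKM at A2Y and at 111, 202 and 173 FPKM in WB. These groups did not overlap either, and the difference was 1.85 ± 0.30 (limma, adjusted p = 0.0014). TU58564 was lower in WB, at 8.76, 10.8 and 14.5 FPKM, with a difference of -1.78 ± 0.24 (limma, adjusted p = 0.00046). TU47080 was at 579, 544 and 574 FPKM in WB, with a difference of -0.65 ± 0.20 (limma, adjusted p = 0.033). That last call was lost without A2Y replicate 2, without any one of the WB libraries, under scaling by protein-coding genes and on log2(FPKM+0.1). The median difference of the 25 was -0.034, beside -0.42 in the band from 4 to 5 and -0.24 over all lncRNAs tested. The libraries did not overlap in 2 members that were higher and 4 that were lower in WB, where 2.14 and 40.9% of all lncRNAs tested did not. With libraries scaled by their lncRNAs, 14 were called higher in WB and 0 lower (median 1.09), where 5.63 and 2.54% of all lncRNAs tested were. At an unadjusted p of at most 0.05 in limma 22 members were higher and 1 lower, with no share of all lncRNAs to set beside this. In WB, 13 of the 25 (52.0%) had a lower mean than at A2Y, as did 84.3% of all lncRNAs tested.

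**Figure D2:**
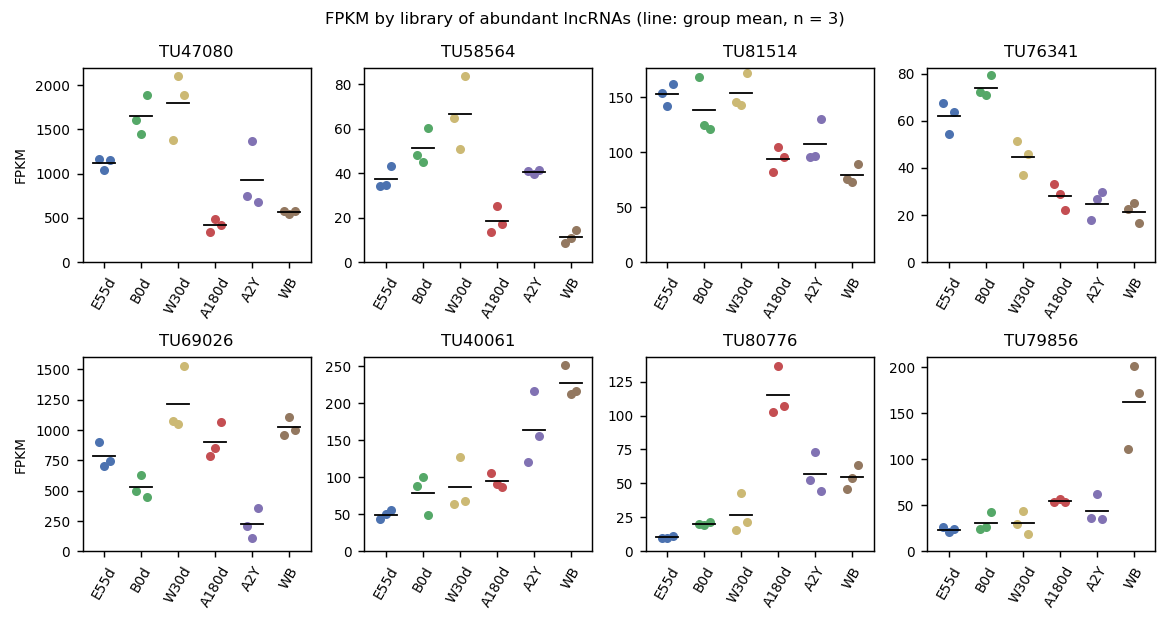
FPKM of 8 of the 25 lncRNAs by library (points) in the 6 groups, with the group mean as a line (n = 3). The upper row holds members called lower in A180d and WB against the mean of the other 4 groups. The lower row holds the 4 members called higher against that mean. At A180d, TU47080 lies between 343 and 484 FPKM and TU80776 between 102 and 137 FPKM.

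A180d and WB had lower lncRNA levels as a whole than the other groups, and the question was whether the abundant lncRNAs shared this. Fewer lncRNAs were also above 0 in their libraries, from 10929 to 11471, against 12133 to 13359 in the other 12 libraries. Against the mean of E55d, B0d, W30d and A2Y, 13 of the 25 were lower in A180d and WB, 4 were higher and 8 were not called. Of all lncRNAs tested 58.7% were called, 55.8% lower and 2.91% higher, and in the band from 4 to 5, 27 of 57 were lower and 8 higher. The median difference of the 25 was -0.34 on log2(FPKM+1), beside -0.31 in the band from 4 to 5 and -0.29 over all lncRNAs tested. This comparison shares its libraries with the steps above, so its calls do not add to those.

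The choice of members bears on this median. With lncRNAs chosen by their mean in the 12 libraries outside A180d and WB, 27 reached 5, 23 of them among the 25, and the median was -0.49. Chosen by their mean in the 6 libraries of A180d and WB, 24 reached 5, 18 of them among the 25, and the median was 0.040, with 10 called higher and 6 lower. Both choices were added after the values were seen.

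Among the members that were lower, TU58564 and TU47080 led. TU58564 was between 8.76 and 25.4 FPKM in the 6 libraries of A180d and WB and between 34.3 and 83.8 FPKM (median 44.0) in the other 12, a difference of -1.67 ± 0.15 (limma, adjusted p = 3.9e-07). TU47080 was between 343 and 579 FPKM (median 514) in the 6 libraries and between 683 and 2108 FPKM (median 1371) in the other 12, a difference of -1.43 ± 0.12 (limma, adjusted p = 2.8e-07). These were the 2 members without overlap between the 6 and the 12 libraries, where 12.9% of all lncRNAs tested did not overlap in this direction. TU76341 differed by -0.93 ± 0.14 (limma, adjusted p = 2.8e-05), but A2Y was as low as A180d in this lncRNA, at 17.9, 26.7 and 29.6 FPKM beside 33.3, 29.0 and 22.3 FPKM. TU61193 differed by -0.93 ± 0.31 (limma, adjusted p = 0.017). TU8413, TU80538, TU81514, TU77474, TU38652, TU38451, TU80113, TU79655 and TU79098 were lower by between 0.34 and 0.82 on the log2 scale (adjusted p from 5.0e-05 to 0.041). TU79098 lost its call without any one of 11 of the 18 libraries, and TU79655 without A180d replicate 1 or WB replicate 1. TU80113, the third most abundant, was at 95.2, 128 and 152 FPKM at A2Y, which was below A180d (144, 187 and 167 FPKM) in its mean. The A2Y mean was also below the A180d mean in TU61193 (4.98 and 5.31 on log2(FPKM+1)), TU38652 (5.41 and 5.50) and TU38451 (4.69 and 4.81). For these lncRNAs, TU76341 and TU80113, the call against the mean of the 4 groups does not set A180d below A2Y. In the other members called lower, the A2Y mean was above the A180d mean.

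The 4 members that were higher in A180d and WB differed in which of these groups was high. TU80776 was highest at A180d, and its WB libraries (45.9, 54.1 and 63.4 FPKM) were like those of A2Y. Its difference from the other 4 groups was 1.72 ± 0.17 (limma, adjusted p = 1.1e-06). TU79856 was highest in WB, with 53.7, 57.1 and 53.4 FPKM at A180d, and was the single member with both A180d and WB above all 4 other groups in their means (1.57 ± 0.19, limma, adjusted p = 4.8e-06). TU40061 was at 43.7, 50.2 and 55.4 FPKM at E55d and at 106, 91.0 and 87.5 FPKM at A180d. It was at 120.5, 216 and 155 FPKM at A2Y and at 252, 212 and 216 FPKM in WB. Its means rose at every stage, so A180d was below A2Y and WB was the high group. The difference was 0.79 ± 0.17 (limma, adjusted p = 0.00063). TU69026 was high at W30d, A180d and WB and lowest at A2Y (0.76 ± 0.16, limma, adjusted p = 0.00068). For 0 of the 4 did all 6 libraries lie above all other 12, where 0.0708% of all lncRNAs tested did.

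**Figure D3:**
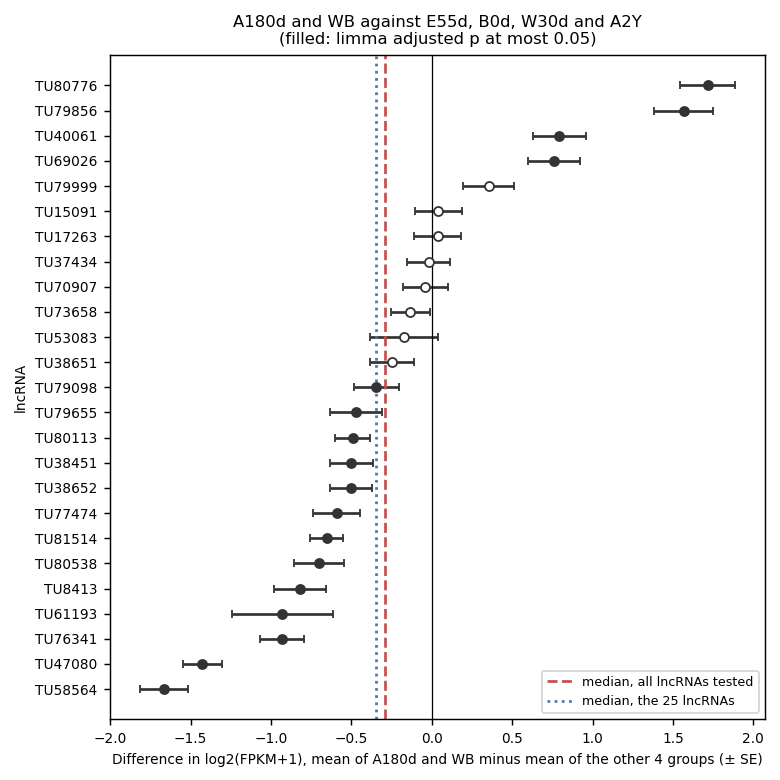
Difference in log2(FPKM+1) between the mean of A180d and WB and the mean of E55d, B0d, W30d and A2Y for each of the 25 lncRNAs, with its SE. Filled points have a limma adjusted p of at most 0.05, and the vertical lines mark 0, the median of the 25 (-0.34) and the median of all lncRNAs tested (-0.29). The 25 lncRNAs range from -1.67 (TU58564) to 1.72 (TU80776).

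The 8 members without a call were TU79999 (0.35 ± 0.16, limma, adjusted p = 0.063), TU15091 (0.042 ± 0.15), TU17263 (0.038 ± 0.15), TU37434 (-0.019 ± 0.13), TU70907 (-0.039 ± 0.14), TU73658 (-0.13 ± 0.12), TU53083 (-0.17 ± 0.21) and TU38651 (-0.25 ± 0.14). A missing call does not show that these levels were equal. Without both B0d replicate 3 and W30d replicate 2, TU79999 was called higher and TU73658 lower, and 19 members were called.

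Group by group, how the 25 compared with all lncRNAs depended on how a dip was defined. A mean at A180d below both W30d and A2Y was found in 12 of the 25 (48.0%), in 70.2% of the band from 4 to 5 and in 73.1% of all lncRNAs tested. This dip together with a mean in WB below A2Y was found in 8 of the 25 (32.0%), against 59.6% and 67.0%. Both A180d and WB were below all 4 other groups in 7 members (28.0%), namely TU47080, TU81514, TU79655, TU8413, TU58564, TU77474 and TU80538, against 29.8% and 50.3%. A180d alone, set against W30d and A2Y, gave 8 members lower and 2 higher (TU80776 and TU69026), where 18.6% of all lncRNAs tested were called lower and 0.736% higher. Against the mean of W30d and A2Y, 88.0% of the 25 and 87.6% of all lncRNAs tested were lower at A180d. The median differences were -0.28 and -0.23 on log2(FPKM+1), but -0.28 and -0.81 on log2(FPKM+0.1). These shares were not tested against each other.

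The scale of the values matters for this comparison, since adding 1 to the FPKM compresses the differences of low lncRNAs and hardly touches those of the 25. On log2(FPKM+0.1) the median difference of A180d and WB was -0.35 for the 25 and -0.92 for all lncRNAs tested. By bands of the mean level it was -0.74 below 0.5, -1.25 from 0.5 to 1, -0.91 from 1 to 2, -0.40 from 2 to 3, -0.28 from 3 to 4 and -0.32 from 4 to 5. The lncRNAs with a mean below 2 thus had the large differences. For A180d and WB together, the 25 were like the other lncRNAs with a mean above 2. For WB against A2Y they were not, with a median of -0.034 for the 25. The bands from 2 to 3, 3 to 4 and 4 to 5 were there at -0.26, -0.34 and -0.43. Protein-coding genes in the same bands had medians from -0.023 to 0.33 for A180d and WB together on this scale. The 951 of them with a mean of at least 5 were at 0.33. These bands are a description, and features within a library are not independent.

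**Figure D4:**
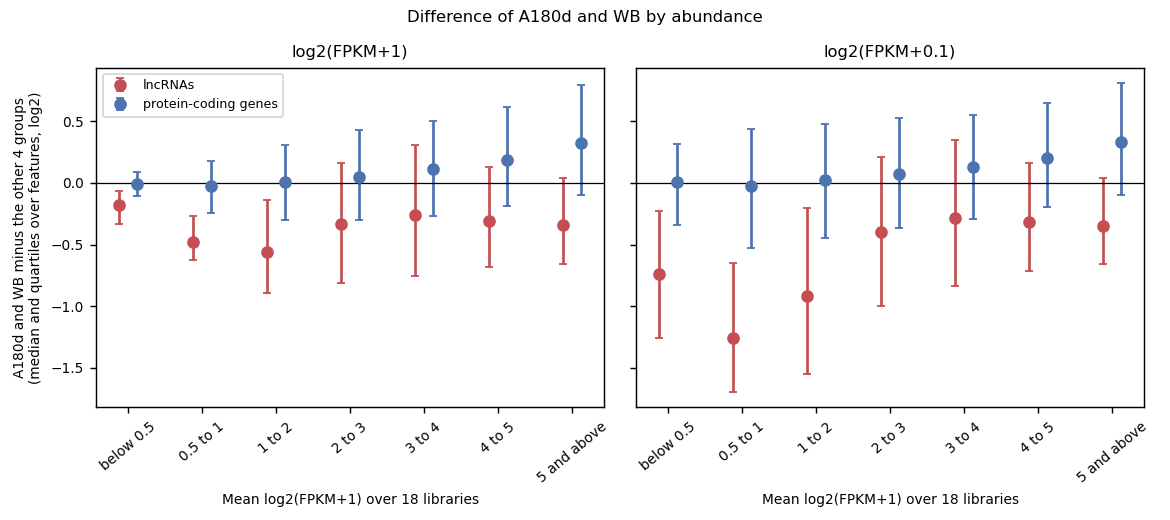
Difference between A180d and WB and the other 4 groups by band of mean log2(FPKM+1), as the median (points) and quartiles (bars) over lncRNAs (red) and protein-coding genes (blue), on log2(FPKM+1) at left and log2(FPKM+0.1) at right. On the right, lncRNAs with a mean from 0.5 to 1 are at -1.25, and the 25 with a mean of 5 and above at -0.35.

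The sums on the linear scale gave the same order. The summed FPKM of the 25 lncRNAs averaged 2700.1 over the 6 libraries of A180d and WB and 3438 over the other 12, which is 78.5%. That of all other lncRNAs averaged 8136 and 14326, which is 56.8%. For the other lncRNAs the 6 libraries (6902 to 9321) lay below all 12 others (10916 to 18211), whereas for the 25 the ranges overlapped, 2168 to 3064 against 2056 to 4811. A180d and WB differed in this sum, at 70.5 and 86.6% of the other 12 libraries, and A2Y, one of the other groups, stood at 70.2%. Without TU47080 and TU69026, the other 23 members stood at 90.6% in the 6 libraries together, at 80.4% in A180d (1040.2, 1199 and 1085) and at 101% in WB (1289, 1389 and 1486). The median FPKM of the members was 42.1 in A180d and WB and 47.6 in the other libraries (88.4%), while the median FPKM of all lncRNAs was 0.160 and 0.480 (33.3%). The share of the 25 in all lncRNA FPKM was 17.3 ± 1.63% in the fetal group, 18.6 ± 2.00% in B0d, 26.6 ± 2.34% in W30d, 24.3 ± 1.20% in A180d, 15.4 ± 0.558% in A2Y and 25.5 ± 1.40% in the Wild Boars (SD, n = 3). W30d had a share as high as A180d and WB, and its libraries held the highest summed FPKM of the 25, 3864, 4575 and 4811.

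**Figure D5:**
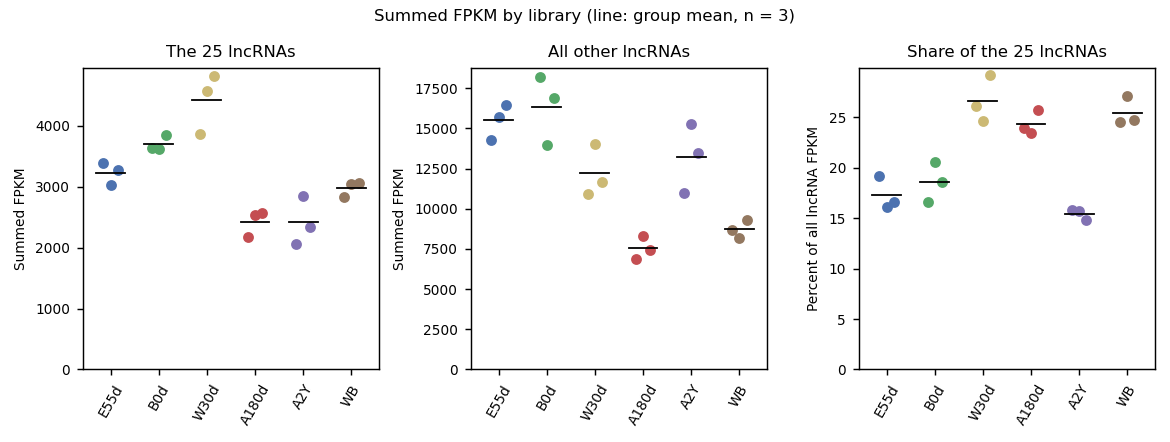
Summed FPKM of the 25 lncRNAs (left), of all other lncRNAs (middle) and the percent of all lncRNA FPKM that the 25 take (right), by library (points) with the group mean (line, n = 3). For all other lncRNAs the A180d and WB libraries (6902 to 9321) lie below the 12 others (10916 to 18211), and for the 25 they do not.

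Values also depended on how libraries were scaled. With each library scaled by its protein-coding genes, 13 were lower and 4 higher as before, with a median of -0.41 beside -0.31 over all lncRNAs tested, of which 57.4% were called lower and 2.65% higher. The lncRNA scaling factor of A180d and WB, the median ratio to the geometric mean over libraries of the 6898 lncRNAs above 0 in every library, was 0.409 of that of the other groups. Scaling with that factor adds nearly the same amount to the difference of every abundant lncRNA, so that a turn in direction follows from the size of the factor and is not particular to the 25. With it, 20 of the 25 were higher in A180d and WB and 0 lower in limma (20 and 1 at an unadjusted p of at most 0.05), with a median of 0.91, where 17.2% of all lncRNAs tested were called higher and 21.9% lower, with a median of -0.046. The 5 members that were not called in that scaling were TU47080, TU58564, TU61193, TU76341 and TU8413.

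Libraries of one group agreed less well for some members than for others. TU61193 had the largest pooled SD, 0.74 on the log2 scale. It was at 88.2, 129 and 27.9 FPKM at B0d and at 157, 41.2 and 77.1 FPKM at W30d. The low values were in B0d replicate 3 and W30d replicate 2. HBM, an erythroid globin gene, was at 1146, 1094 and 499.5 FPKM in the B0d libraries and was also lowest in W30d replicate 2, whereas HBB was at 9383, 11978 and 5556 FPKM in the B0d libraries and highest in W30d replicate 2. At A2Y the lowest value of TU61193 (15.9 FPKM) was in replicate 3, where HBM was highest (54.7 FPKM). The part of red cell content in TU61193 was not tested. Without both libraries TU61193 differed between A180d and WB and the other groups by -1.20 (limma, adjusted p = 0.00051). TU53083 was at 80.8 FPKM in WB replicate 1 and at 23.6 and 20.7 FPKM in the other WB libraries, so its mean in WB rests on that library. TU38652 was at 143 FPKM in B0d replicate 3 beside 67.0 and 77.6 FPKM in replicates 1 and 2.

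Evenness over the groups was described on log2(FPKM+1), where both measures used depend on the level of the lncRNA. The difference between the highest and lowest group mean had a median of 1.24 on log2(FPKM+1) for the 25, 1.31 in the band from 4 to 5 and 0.71 over all lncRNAs tested. On this scale the added 1 compresses the differences of low lncRNAs, and 7148 of the 14129 tested had a mean below 0.5. The 0.71 is therefore not comparable with the 1.24. The Shannon entropy of the 5 stage means on that scale is highest for an even level and counts a difference relative to the level. Its median was 2.32 bits for the 25, 2.32 bits in the band from 4 to 5 and 2.13 bits over all lncRNAs tested. Among the members it was lowest in TU80776 (2.28 bits). A high log2 level alone keeps this entropy high. TU47080, which fell by 2.09 from W30d to A180d, was still at 2.32 bits. The 2.13 bits are therefore not comparable with the 2.32 bits of the 25.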

How the data were processed

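Spleen RNA of 15 domestic pigs and 3 Wild Boars was sequenced in strand-specific libraries. The authors mapped reads with TopHat to a pig genome with replaced sex chromosomes, assembled transcripts, filtered lncRNAs and quantified them with StringTie, and deposited log2 values, log2(FPKM+1), per library. Whether the quantification used strand is not given in the sources used here. The submitters' processing notes name TopHat, Cufflinks 2.2.1, StringTie 1.3.3 and Sscrofa10.2. No read counts were used, so the number of reads behind a value is unknown and no counting interval is given.

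The 52256 empty cells of the lncRNA table were read as FPKM 0. LncRNAs with FPKM above 0.1 in at least 3 libraries (14129) were fitted with limma 3.58.1 in R 4.3.3, with 6 groups in 1 model, a mean-variance trend, two-sided tests and Benjamini-Hochberg adjustment over all lncRNAs tested (threshold 0.05). The procedure was tested on simulated data. Sums, bands and figures used Python 3.11.15, numpy 2.4.6, pandas 2.3.3 and matplotlib 3.10.9. Marker genes were matched through a table of gene names, which held a symbol for 8215 of the 12913 protein-coding identifiers.

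The members and lists were chosen with earlier results of these data known. TU78568 and TU39066 were left out by name, and neither reaches a mean of 5. Named were the 12 highest members, the 3 largest rises and falls called in each comparison, the 3 members just inside and 3 lncRNAs just outside the limit, and members whose group means differed by under 0.5, of which there were 0. TU38651, TU79098, TU38451, TU15091 and TU37434 were named after their values were seen, to account for every member.

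The E55d columns are numbered 1, 5 and 6 and were used without a replicate number. The numbers of the other 15 libraries did not pair them. Over the 30 pairs of libraries with the same number in different groups, deviations from the group means correlated at between -0.22 and 0.14 (mean -0.0071), and 2 pairs were above 0.1. Alternatives were log2(FPKM+0.1), other filters, scaling by protein-coding genes or by lncRNAs, fits of the compared groups alone, a replicate block, other rules of membership, and each library left out.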

Additional observations from a re-analysis of the deposited data

How the results depend on the processing

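The values carry no read counts, so precision was limited by 3 libraries per group. The paper lists the amount of sequence per library, with A180d and WB among the lower amounts. Scaling was not checked against these amounts, and the part of depth in the lncRNA levels was not tested. Scaling by lncRNAs reversed the majority of the calls from W30d to A180d (8 called, 7 of them higher, median 0.57), from A180d to A2Y (11, all lower, median -1.03) and for A180d and WB against the other 4 groups (20, all higher, median 0.91). It also turned the medians of B0d to W30d (0.51) and A2Y to WB (1.09, 14 called) and left 3 calls from E55d to B0d. Scaling by protein-coding genes left 1 call from B0d to W30d, reversed the majority from A180d to A2Y (5 called, 3 of them lower, median 0.096) and moved the median of E55d to B0d to 0.083. On log2(FPKM+0.1), 1 member was called from B0d to W30d.

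When other groups were left out of the model, E55d to B0d kept a count of 3, B0d to W30d of 0 (4 in limma at an unadjusted p of at most 0.05), W30d to A180d of 4 and A180d to A2Y of 2. With the 5 members of mean at least 6, the limma counts were 0 (3 unadjusted), 1, 3, 2, 2 and 5 in the order of the report (5 for the 5 stages), and the medians were -0.14 from E55d to B0d, 0.11 for B0d to W30d, -0.63 for W30d to A180d, 0.16 from A2Y to WB and -0.49 for A180d and WB. With the 28 lncRNAs chosen by the mean of the 15 domestic libraries, the medians were 0.34 from A180d to A2Y and -0.48 for A180d and WB. Against B0d, W30d and A2Y alone, the median of A180d and WB was -0.24. A180d against W30d and A2Y gave 10 calls, and WB against A2Y gave 4 and a median of -0.034. Chosen after seeing the data were the fit without B0d replicate 3 and W30d replicate 2 (4 calls from B0d to W30d) and membership by the 12 libraries outside A180d and WB (median -0.49) or by the 6 libraries inside (16 called, 10 of them higher, median 0.040). The causes of these shifts were not tested.

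The replicate number as a block, possible for the 15 libraries outside E55d, left 1 call from B0d to W30d and 5 from A180d to A2Y, and the median of A180d and WB without E55d stayed at -0.24. It moved no other count of calls by over 1.5 times. No fit with this block was possible for E55d to B0d and for the 5 stages because the E55d columns carry no number from the labels. Each library came from a different animal, so the block pairs no animal across groups. Leaving out 1 library at a time gave 17 to 22 calls over the 5 stages, 15 to 19 for A180d and WB, and, for the steps in the order of the report, 3 to 7, 1 to 3, 4 to 10, 3 to 10 and 3 to 5. The medians ran from 0.23 to 0.32, from -0.16 to -0.017, from -0.50 to -0.38, from 0.24 to 0.36 and from -0.092 to 0.035 over the steps, and from -0.40 to -0.30 for A180d and WB. No called member changed sign in these fits. Of the other alternatives apart from single libraries, 117 values were counted as unchanged, 30 as moved and 14 as turned. A median was unchanged if it shifted by under 0.0995, whichever its sign. This limit is the pooled within-group SD of the library median of the members' deviations. A count was unchanged if it stayed within 1.5 times and its majority was not reversed. A turn was a larger shift of a median with a change of sign, or a reversed majority of calls.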
